A study of Homo sapiens with 4 samples.

Results

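The genes described here are 10 human genes of iron uptake, storage and sensing: TFRC, SLC11A2, SLC25A37, SLC40A1, FTH1, FTL, NCOA4, ACO1, IREB2 and FBXL5. They were taken by name from count tables of 58243 genes, and all 10 were found and passed the filter on low counts. The tables come from SH-SY5Y, a widely used cell line from a human neuroblastoma. The 2 control libraries were made from cells given no agent. The other 2 libraries came from cells exposed for 8 h to sodium nitroprusside (SNP), an iron nitrosyl compound that donates nitric oxide. The labels speak of several doses without saying which was sequenced, and they call the RNA of the SNP-exposed cells oxidized. All cells were grown in serum-containing medium and settled for 24 h before treatment, and the treatment text calls the cells retinoic acid differentiated, which the growth text does not mention. Libraries carry the letter a or b within each group, and 3 wells per treatment are recorded. The labels do not say whether a and b were separate cultures, so the p-values measure only the spread between these libraries, which may be technical.

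Iron enters most cells bound to transferrin through the transferrin receptor, is carried across membranes by dedicated transporters, and is stored inside the ferritin shell. The level of free iron is sensed by 2 iron regulatory proteins, encoded by ACO1 and IREB2, which bind short RNA hairpins called iron-responsive elements. A hairpin before the coding part lets the protein block translation, as in the ferritin mRNAs; hairpins after the coding part let it shield the mRNA from decay, as in the TFRC mRNA. Nitric oxide is known to act on the iron-sulfur cluster that keeps the ACO1 protein in its enzyme form.

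The hairpins of FTH1, FTL, SLC40A1, TFRC and SLC11A2 are shown because they divide these genes into those with the element before and those with it after the coding part. The search asked for a C, 5 bases, the loop CAGTGN and then 5 bases that pair with the 5 before the loop (G with U pairs allowed), on the transcript strand of GENCODE 29 transcripts (GRCh38). Also accepted were the loop CAGAGN and 1 unpaired base in the 3′ arm of the stem. Capitals mark the bulged C and the loop, and each sequence is written 5′ to 3′ in DNA letters with 6 flanking bases on either side.
FTH1: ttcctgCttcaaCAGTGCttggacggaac
FTL: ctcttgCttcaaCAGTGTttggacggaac
SLC40A1: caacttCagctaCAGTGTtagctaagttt
TFRC, hairpin 1: atttatCagtgaCAGAGTtcactataaat
TFRC, hairpin 2: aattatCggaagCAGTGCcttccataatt
TFRC, hairpin 3: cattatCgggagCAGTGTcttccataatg
TFRC, hairpin 4: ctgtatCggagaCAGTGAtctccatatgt
TFRC, hairpin 5: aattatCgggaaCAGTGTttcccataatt
SLC11A2: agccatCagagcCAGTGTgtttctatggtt

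The FTH1 element lies at chr11:61967574-61967602 (minus strand), in the 5′ untranslated region, and ends 148 bases before the start codon; 7 of 8 annotated coding transcripts hold it. The FTL element lies at chr19:48965335-48965363 (plus strand) and ends 144 bases before the start codon. The SLC40A1 element lies at chr2:189580661-189580689 (minus strand), in 1 of 5 coding transcripts. The TFRC elements lie between chr3:196051029-196051057 and chr3:196050463-196050491 (minus strand), from 885 to 1451 bases after the stop codon in a 3′ untranslated region of 2658 bases. The SLC11A2 element lies at chr12:50988268-50988297 (minus strand), 28 bases after the stop codon, and is held by 5 of 18 coding transcripts, so the gene's count mixes transcripts with and without it. The length implied by the deposited values for SLC11A2 was 9823 bases, against 10145 in GENCODE 29, so the gene model behind its counts differs from the one searched here. The standard form was found in the 5′ untranslated region of 22 of 17873 coding genes (0.123%) and in the 3′ untranslated region of 95 of 18650 (0.509%); any of the 3 forms was found in 0.470% and 2.02%. At least 3 standard hairpins in a 3′ untranslated region were found in 2 genes, TFRC being 1 of them. IREB2 also matched, 2826 bases after its stop codon and in 1 of 4 coding transcripts. Its match has the form with an unpaired base, as that of SLC11A2 does, and its sequence is not shown. No match was found in the untranslated regions of SLC25A37, NCOA4, ACO1 or FBXL5.

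**Figure D1:**
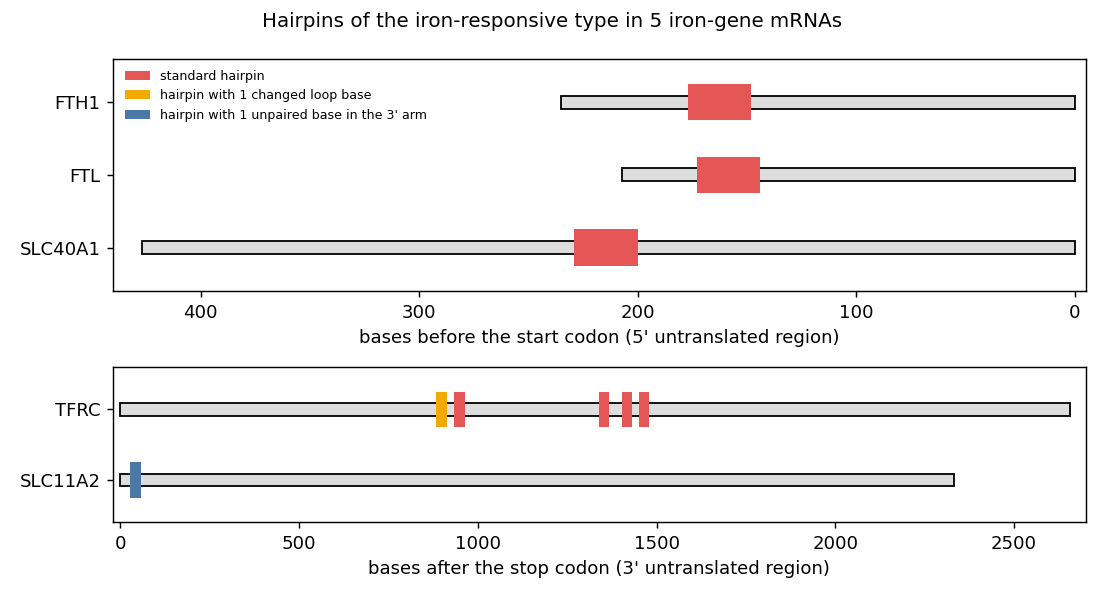
Position of the hairpins in the untranslated regions of FTH1, FTL and SLC40A1 (upper, bases before the start codon) and of TFRC and SLC11A2 (lower, bases after the stop codon), drawn to scale on the coding transcript with the longest coding part that holds them. Grey bars are the untranslated regions and coloured blocks the hairpins; TFRC holds 5, between 885 and 1451 bases after the stop codon, and the other 4 genes hold 1 each.

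The summed gene counts lay between 5613144 and 8056550 per library, and 3 counts, the floor used here, amounted to between 0.378 and 0.533 CPM (counts scaled to library size with TMM factors). Of 10 adrenergic neuroblastoma markers, 9 were above 5 TPM in every library, among them HAND2 and DBH; TH was listed at 0 in all 4 libraries. Their summed level was 5080 to 5305 TPM in control and 4244 to 4603 TPM in SNP libraries. Of 6 glial markers AQP4, MBP and SOX10 were among those at 0 throughout, as were PTPRC, HBA1, HBB and AIF1 of 6 blood markers; the summed levels were 0.209 to 2.98 TPM (control) and 0.524 to 1.74 TPM (SNP) for glia, and 4.31 to 4.93 and 2.77 to 6.33 TPM for blood. The 4 hepatocyte markers summed to at most 0.505 TPM. Of 6 fibroblast markers COL3A1 and PDGFRB were above 5 TPM in every library, and that list summed to 59.5 to 69.0 TPM in control and 67.6 to 68.6 TPM in SNP libraries. The part of cell makeup in the results was not tested. In these bulk samples fewer cells of a type and less RNA per cell cannot be told apart.

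In SNP libraries the transferrin receptor mRNA was higher and both ferritin mRNAs were lower, while the other 7 iron genes did not pass the test. TFRC rose 1.66-fold, with the SNP libraries at 251 and 229 CPM against 126 and 163 in control. FTH1 fell by 31.0% and FTL fell by 39.3%, but with a correction for base composition, neither passed and FTH1 was at 0.014 on the log2 scale. Called here means an adjusted p below 0.05 (edgeR, quasi-likelihood; Benjamini-Hochberg over every gene tested): 3 of the 10 genes were called, against 26.2% of 14759 genes. By direction, 1 of 10 was higher, against 13.6% of all genes, and 2 of 10 were lower, against 12.6%; these shares are near the background. In CPM the groups did not overlap for 6 of the 10 genes, against 64.0% of all genes tested. The median log2 fold change was -0.026 over the 10 genes and -0.0042 over all genes tested.

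**Figure D2:**
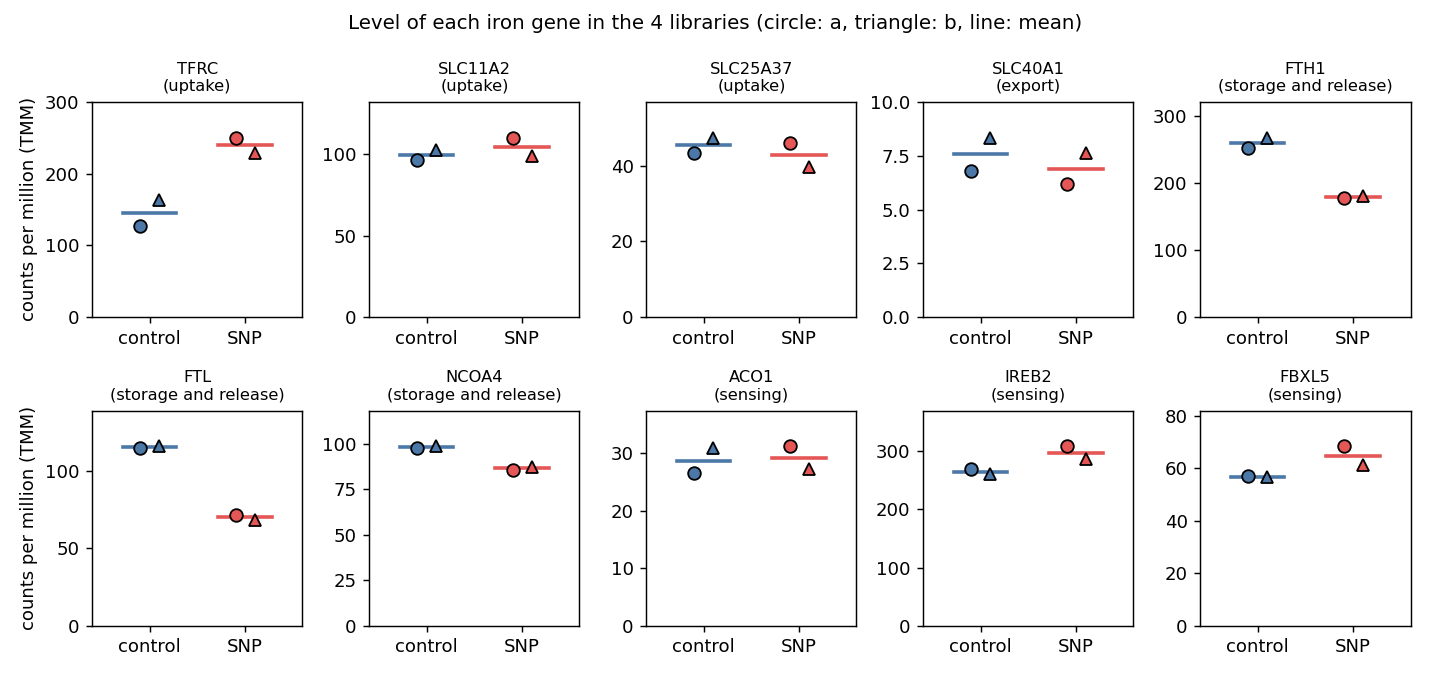
Level in CPM (TMM-scaled) of each of the 10 iron genes in the 4 libraries (circle, library a; triangle, library b; line, group mean; every axis starts at 0). TFRC rises from a mean of 145 to 240 CPM, FTH1 and FTL fall from 261 to 180 and from 115 to 70.0 CPM, neither fall passing with the base-composition offsets; the groups overlap for SLC11A2, SLC25A37, SLC40A1 and ACO1.

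Per length, the ferritin mRNAs were the most abundant of the 10 and ferroportin mRNA the least. The length used is that of all annotated exons of a gene merged, 878 bases for FTL, 2030 for FTH1, 7887 for TFRC and 10806 for IREB2. The mRNAs in these cells may be shorter, so the order of levels and the closeness of FTH1 to FTL depend on the gene model. The deposited TPM values in control libraries were 619 ± 11.7 for FTL and 604 ± 32.5 for FTH1 (mean ± SD, n = 2 here and below), whose library values overlapped. IREB2 followed at 115 ± 0.633 TPM and NCOA4 at 113 ± 2.05 TPM, a difference smaller than the spread of NCOA4. TFRC stood in the fifth place at 86.4 ± 16.6 TPM, with unequal control libraries. FBXL5 was at 58.5 ± 0.724, SLC11A2 at 47.7 ± 2.64, SLC25A37 at 26.2 ± 2.02, ACO1 at 17.9 ± 2.16 and SLC40A1 at 8.23 ± 1.31 TPM. In SNP libraries TFRC, at 155 ± 4.93 TPM, stood above IREB2 at 141 ± 2.43 and NCOA4 at 108 ± 5.01 TPM. There FTH1, at 453 ± 21.2 TPM, stood above FTL at 408 ± 1.29 TPM, and their library values did not overlap. The TPM scale itself was shifted: the median log2 ratio of SNP over control was 0.12 in TPM over all genes tested. The median was -0.0042 in the TMM-scaled fit, so changes of the 10 genes are given below in CPM and from that fit. Read counts given below are not scaled to library size, and the SNP libraries were deeper. Their summed gene counts were 8056550 and 7648309, against 6538701 and 5613144 in control libraries. A change in raw counts therefore differs from the fitted log2 fold change, which takes depth into account.

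Of the 3 uptake genes, TFRC changed. TFRC encodes the receptor that takes transferrin-bound iron into the cell (ENSG00000072274; chromosome 3, 196027183 to 196082189, minus strand; 21 merged exons, none shared with another gene). Control a held 820 TFRC counts and control b 918, while SNP a held 1991 and SNP b 1765; in CPM these are 126, 163, 251 and 229. Both SNP libraries lay above both control libraries, and the gap between the groups was wider than the gap between the control libraries. The log2 fold change was 0.73 (SE 0.114, 95% confidence interval 0.49 to 0.97; edgeR adjusted p = 7.9e-05). Ranked by log2 fold change among all genes tested, TFRC was at percentile 93.1. It stayed past the threshold in each of 14 other fits, with log2 fold changes from 0.43 to 0.92; the lowest, a 1.35-fold rise, came with base-composition offsets, which take out of each library its trend with transcript length, GC content and the excess of guanine over cytosine (edgeR adjusted p = 0.0113).

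SLC11A2, which encodes the divalent metal transporter DMT1 that moves iron out of endosomes and into the cell, had 96.5 and 102 CPM in control libraries and 110 and 99.1 CPM in SNP libraries. The groups overlapped, and the log2 fold change was 0.073 (SE 0.110, interval -0.16 to 0.30; edgeR adjusted p = 0.670). SLC25A37, which encodes mitoferrin 1 and brings iron into mitochondria (chromosome 8, 23528805 to 23575463, plus strand), had 43.3 and 47.4 CPM in control and 45.9 and 39.7 CPM in SNP libraries. These groups overlapped too, with a log2 fold change of -0.082 (SE 0.137, interval -0.37 to 0.20; edgeR adjusted p = 0.708). The intervals leave room for values from 0.898-fold to 1.23-fold for SLC11A2 and from 0.775-fold to 1.15-fold for SLC25A37. SLC11A2 and TFRC both carry hairpins after the coding part, and the TPM ratio of TFRC to SLC11A2 was 1.63 and 1.98 in control libraries and 2.83 and 2.88 with SNP. The SNP ratios lay above the control ratios; the 2-sided exact permutation p was 0.333, the smallest that 2 against 2 libraries can give. This pair was chosen after its values were seen.

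SLC40A1 encodes ferroportin, the iron exporter of the cell membrane, and was the gene with the lowest level (ENSG00000138449; chromosome 2, 189560579 to 189583758, minus strand). It was counted 44 and 47 times in control and 49 and 59 times in SNP libraries, or 6.79 and 8.34 CPM against 6.17 and 7.65 CPM. The groups overlapped. The log2 fold change was -0.13 (SE 0.282, interval -0.71 to 0.46; edgeR adjusted p = 0.784), so the data leave room for values from 0.610-fold to 1.37-fold.

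Both ferritin subunit genes fell. FTH1 encodes the heavy chain, which oxidises iron as it enters the shell (ENSG00000167996; chromosome 11, 61959718 to 61967660, minus strand). Its CPM values were 253 and 268 in control libraries and 178 and 182 in SNP libraries, with every SNP value below every control value. The log2 fold change was -0.54 (SE 0.0962, interval -0.74 to -0.34; edgeR adjusted p = 3.3e-04). FTL encodes the light chain, which supports the iron core (ENSG00000087086; chromosome 19, 48965301 to 48966878, plus strand). It had 115 and 116 CPM in control libraries and 71.5 and 68.6 CPM in SNP libraries, again without overlap. The log2 fold change was -0.72 (SE 0.110, interval -0.95 to -0.49; edgeR adjusted p = 6.2e-05). Their places among all genes tested were percentile 11.9 for FTH1 and 6.44 for FTL.

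The fall of FTH1 and FTL passed without the base-composition offsets and did not pass with them. With the base-composition offsets the log2 fold changes were 0.014 for FTH1 and -0.081 for FTL, and edgeR's adjusted p-values 0.918 and 0.603. With offsets on length and GC alone they were -0.36 and -0.45 (edgeR adjusted p = 0.0023 and 0.0027). Other facts of counting touch the ferritin genes: 1267 of the 2030 exonic bases of FTH1 (62.4%) overlap BEST1 on the opposite strand, and all 41 ferritin pseudogene rows were listed at 0 in every library. BEST1 was counted 15 and 18 times in control and 45 and 36 times in SNP libraries, FTH1 1400 to 1642 times. Of all 10233 processed pseudogene rows, 212 to 265 per library had counts; how reads shared between a ferritin gene and its copies were assigned is not given in the sources used here, so the ferritin levels are uncertain.

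NCOA4 encodes the receptor that delivers ferritin to the lysosome for iron release. It had 98.1 and 98.7 CPM in control and 85.7 and 87.4 CPM in SNP libraries. The SNP values lay below the control values, but the log2 fold change of -0.18 (SE 0.109, interval -0.41 to 0.041) did not pass (edgeR adjusted p = 0.226). Over the 14 other fits NCOA4 ranged from -0.21 to -0.17, and none called it.

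The 3 sensor genes did not pass. ACO1, whose product is an aconitase with an iron-sulfur cluster and an RNA-binding iron regulatory protein without it, had 26.5 and 30.9 CPM in control and 31.2 and 27.2 CPM in SNP libraries. The groups overlapped (log2 fold change 0.029, SE 0.161, interval -0.30 to 0.36; edgeR adjusted p = 0.918). IREB2 encodes the other regulatory protein, which is controlled by degradation, and had 269 and 262 CPM in control and 308 and 287 CPM in SNP libraries. FBXL5 encodes the iron-binding ligase subunit that marks the IREB2 protein for degradation, and had 56.9 and 56.8 CPM in control and 68.4 and 61.2 CPM in SNP libraries. For both genes the SNP values lay above the control values, by log2 fold changes of 0.17 (SE 0.0939, interval -0.027 to 0.36) and 0.19 (SE 0.122, interval -0.066 to 0.44). Neither passed (edgeR adjusted p = 0.201 for IREB2 and 0.276 for FBXL5). With the base-composition offsets these 2 values were 0.021 and -0.00058.

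**Figure D3:**
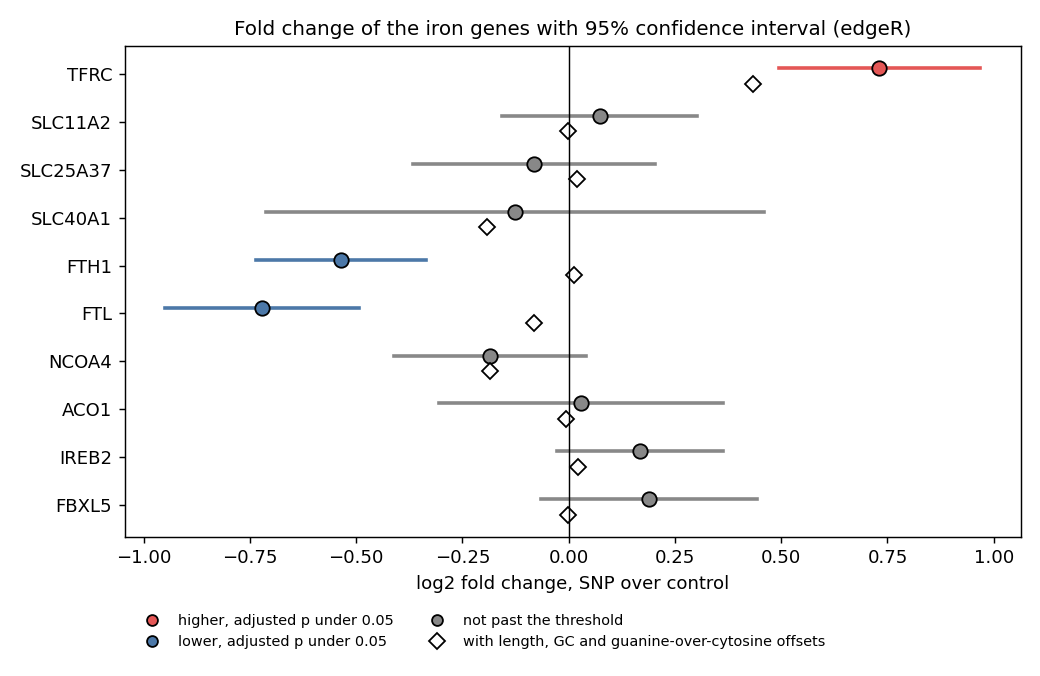
Log2 fold change of SNP over control for the 10 iron genes (circles, with 95% confidence intervals, edgeR) and the same value with the base-composition offsets (diamonds). TFRC stays above 0 with those offsets, at 0.43, while the diamonds of FTH1 and FTL lie at 0.014 and -0.081.

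Ratios between iron genes within a library do not depend on the library's total. Their differences between the groups were smaller with the base-composition offsets. The TPM ratio of TFRC to FTH1 was 0.129 and 0.156 in control libraries and 0.363 and 0.324 in SNP libraries, a log2 difference of 1.27 (0.42 with the base-composition offsets). The ratio of TFRC to FTL, a pair chosen after its values were seen, was 0.122 and 0.156 in control and 0.390 and 0.371 in SNP libraries, a log2 difference of 1.46 (0.52 with the base-composition offsets). That of FTH1 to FTL was 0.952 and 1.0001 in control and 1.08 and 1.14 in SNP libraries, a log2 difference of 0.19. In each of these 3 ratios the groups did not overlap. The ratio of IREB2 to ACO1 was 7.08 and 5.92 in control and 6.90 and 7.38 with SNP, and these overlapped. The 2-sided exact permutation p was 0.333 for the first 3 ratios, the smallest possible, and 0.667 for IREB2 to ACO1; adjusted by Benjamini-Hochberg over these and the ratio of TFRC to SLC11A2, 5 in all, they were 0.417 and 0.667. With those offsets the log2 difference between the groups was 0.095 for FTH1 to FTL, 0.44 for TFRC to SLC11A2 and 0.027 for IREB2 to ACO1, taken from the fitted fold changes after the ratios had been seen.

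The iron genes differ in base composition, and the fold changes of all genes followed that composition. Composition was summed over all annotated transcripts of a gene, noncoding ones included, with shared exons counted once per transcript. It need not be that of the mRNAs expressed here. On this measure FTH1 holds 23.9% guanine and 30.0% cytosine, and FTL 25.2% and 31.1%. Both lie in the lowest of 10 equal groups of genes by guanine minus cytosine. That group had a median log2 fold change of -0.43, and 37.7% of its 1472 genes were called lower. Within it FTH1 stood at percentile 38.1 and FTL at percentile 22.4 of the log2 fold changes. TFRC, with 22.6% guanine and 19.2% cytosine, lies in the ninth group, whose median was 0.24 and in which 26.8% of genes were called higher; TFRC stood at percentile 92.5 there. The other 7 genes lie in groups 4 to 8, where the medians ran from -0.091 to 0.15. The part of base composition in these fold changes was not tested beyond the offsets, which would also take out an effect of SNP that follows composition.

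**Figure D4:**
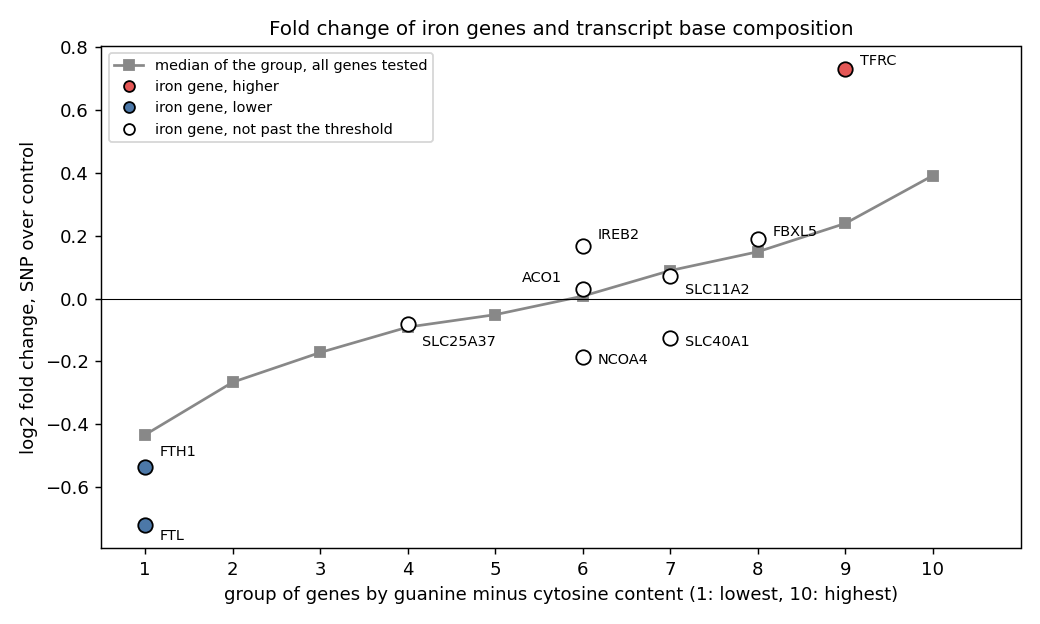
Log2 fold change of SNP over control of the 10 iron genes (circles) placed by their group of guanine minus cytosine content, from 1 (lowest) to 10 (highest), with the median of all genes tested in each group (grey squares). The group medians rise from -0.43 to 0.39; FTH1 and FTL lie in group 1 and TFRC stands above the median of group 9.

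Other genes of iron handling were taken as 6 lists that together hold 89 genes. Of these, 76 had enough counts to be tested; 7 were higher, 10 were lower and 59 did not pass, so 22.4% were called against 26.2% of all genes tested. Their median log2 fold change was -0.088. By direction, 13.6% of all genes tested were higher and 12.6% lower, and the counts per list below stand beside these shares. The share called was 21.4% for iron entry, 45.5% for ferritin loading and turnover and 19.0% for mitochondrial clusters. It was 16.7% for cytosolic clusters, 15.4% for heme and 20% for the other mRNAs with an element. With 5 to 21 genes tested per list, these counts are small. With the base-composition offsets 9 of them passed, and without control b 10.

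The list of iron entry, reduction and transport held 24 genes, of which 14 were tested, 0 were higher and 3 were lower, with a median of -0.21. MCOLN1, an endolysosomal channel that conducts iron, went from 116 and 110 counts (control) to 69 and 80 (SNP), a log2 fold change of -0.97 (SE 0.211, edgeR adjusted p = 0.0018). SLC48A1, a heme transporter of endolysosomes, went from 96 and 81 counts to 63 and 60, a log2 fold change of -0.89 (SE 0.228, edgeR adjusted p = 0.0061). The third was SLC39A14, a metal importer named after its value was seen, at -0.43 (edgeR adjusted p = 0.0066; 0.107 without control b). With the base-composition offsets MCOLN1 passed at -0.59 and SLC48A1, at -0.60, did not (edgeR adjusted p = 0.0389 and 0.0595). SLC39A14 passed with those offsets, at -0.295 (edgeR adjusted p = 0.0283). SLC39A8, a related importer, and TFR2, a second transferrin receptor, did not pass, at -0.60 and -0.43. STEAP2 and STEAP3, reductases that serve the transferrin pathway, were at 0.15 and 0.38 and did not pass. The other 10 genes of the list had too few counts; HAMP, the gene for hepcidin, had 1 to 3 counts per library.

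Among genes of ferritin loading and turnover and of the ligase that holds FBXL5, 11 of 12 were tested, 2 were higher and 3 lower. TAX1BP1, an autophagy receptor that takes part in ferritin turnover, rose from 778 and 710 counts to 1571 and 1236, a log2 fold change of 0.54 (SE 0.112, edgeR adjusted p = 0.0012). HERC2, a ligase linked to NCOA4 degradation whose gene has partial copies that can share reads, rose by 0.38 (SE 0.0901, edgeR adjusted p = 0.0039). The 3 lower genes were poly(rC)-binding proteins, a family known as iron chaperones that load ferritin: PCBP3 at -0.63, PCBP1 at -0.42 and PCBP2, named after its value was seen, at -0.28 (edgeR adjusted p = 3.2e-04, 0.0093 and 0.0206). Their relative PCBP4 was at -0.093 and did not pass. With the base-composition offsets PCBP1 turned to 0.11, PCBP2 was at -0.070 and TAX1BP1 at 0.25, none of them passing (edgeR adjusted p = 0.488, 0.481 and 0.0519), while PCBP3 passed at -0.27 and HERC2 at 0.24. PCBP1 did not pass with length and GC offsets alone either, at -0.21 (edgeR adjusted p = 0.110). Without control b neither PCBP1 nor PCBP2 passed (edgeR adjusted p = 0.160 and 0.171), PCBP2 did not without SNP b (0.0670), and HERC2 did not without control a (0.0674). The ligase subunits SKP1, CUL1 and RBX1 were at -0.083, 0.26 and 0.088 and did not pass.

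The mitochondrial iron-sulfur cluster list had the largest single rise of the 6 lists. All 21 genes were tested; 3 were higher, 1 was lower and 17 did not pass, with a median of 0.10. FDXR, ferredoxin reductase, which feeds electrons to cluster assembly and is also a known p53 target, went from 67 and 89 counts (control) to 306 and 377 (SNP). Its log2 fold change was 1.75 (SE 0.194, edgeR adjusted p = 1.9e-06), and it ranged from 1.46 to 2.08 over 14 other fits. HSPA9, the mitochondrial chaperone that hands over new clusters, rose by 0.83 (SE 0.110, edgeR adjusted p = 1.6e-05), from 1063 and 1151 counts to 2768 and 2346. IBA57, a late-acting assembly factor named after its value was seen, rose by 0.70 (edgeR adjusted p = 0.0013). NDUFAB1, the acyl carrier protein that steadies the assembly complex, fell by 0.79 (SE 0.204, edgeR adjusted p = 0.0063), from 114 and 111 counts to 86 and 82; without control b it did not pass (edgeR adjusted p = 0.0584). The core genes NFS1 and ISCU, for the sulfur donor and the scaffold, did not pass, at -0.16 and 0.039.

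Of 12 cytosolic iron-sulfur cluster genes, all tested, 1 was higher, 1 was lower and 10 did not pass. CIAO1, a subunit of the targeting complex, was at 0.34 (SE 0.108, edgeR adjusted p = 0.0228), and MMS19, its partner, at -0.50 (SE 0.139, edgeR adjusted p = 0.0106). With the base-composition offsets they were at 0.17 and -0.26, and neither passed (edgeR adjusted p = 0.166 and 0.155). Left-out libraries mattered too: CIAO1 did not pass without control a, control b or SNP a (edgeR adjusted p = 0.327, 0.0510 and 0.0705), nor MMS19 without control b (0.368). In DESeq2's Wald test the adjusted p of CIAO1 was 0.0521.

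The heme list held 15 genes, of which 13 were tested, 1 was higher and 1 lower. CPOX, which makes protoporphyrinogen, was at 0.67 (SE 0.218, edgeR adjusted p = 0.0263), and UROS, an earlier enzyme of the path, at -0.45 (SE 0.154, edgeR adjusted p = 0.0370). Neither passed in DESeq2's Wald test (adjusted p = 0.137 and 0.156) or with the base-composition offsets (edgeR adjusted p = 0.412 and 0.0973). CPOX did not pass without control a or SNP a (edgeR adjusted p = 0.265 and 0.104), nor UROS without control a, control b or SNP a (0.132, 0.200 and 0.109) or without the filter on low counts (0.0545). ALAS1, the first enzyme, and FECH, the last, which inserts the iron, did not pass, at -0.22 and 0.21. HMOX1, which breaks heme down, was counted 4 and 1 times (control) and 10 and 5 times (SNP), too few to test.

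Of 6 other mRNAs listed for a known iron-responsive element, 5 were tested, 0 were higher and 1 was lower. EPAS1, which encodes HIF-2α and carries its element before the coding part as ferritin does, was counted 234 and 195 times (control) and 189 and 180 times (SNP). Its log2 fold change was -0.59 (SE 0.154, edgeR adjusted p = 0.0075); with the base-composition offsets it was -0.31 (edgeR adjusted p = 0.117), and it did not pass without control a (0.0701). CDC14A, with an element after the coding part, was at -0.46 and did not pass. ALAS2 was at 0 counts in all 4 libraries, which allows at most 0.378 to 0.533 CPM, for counting error only.

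**Figure D5:**
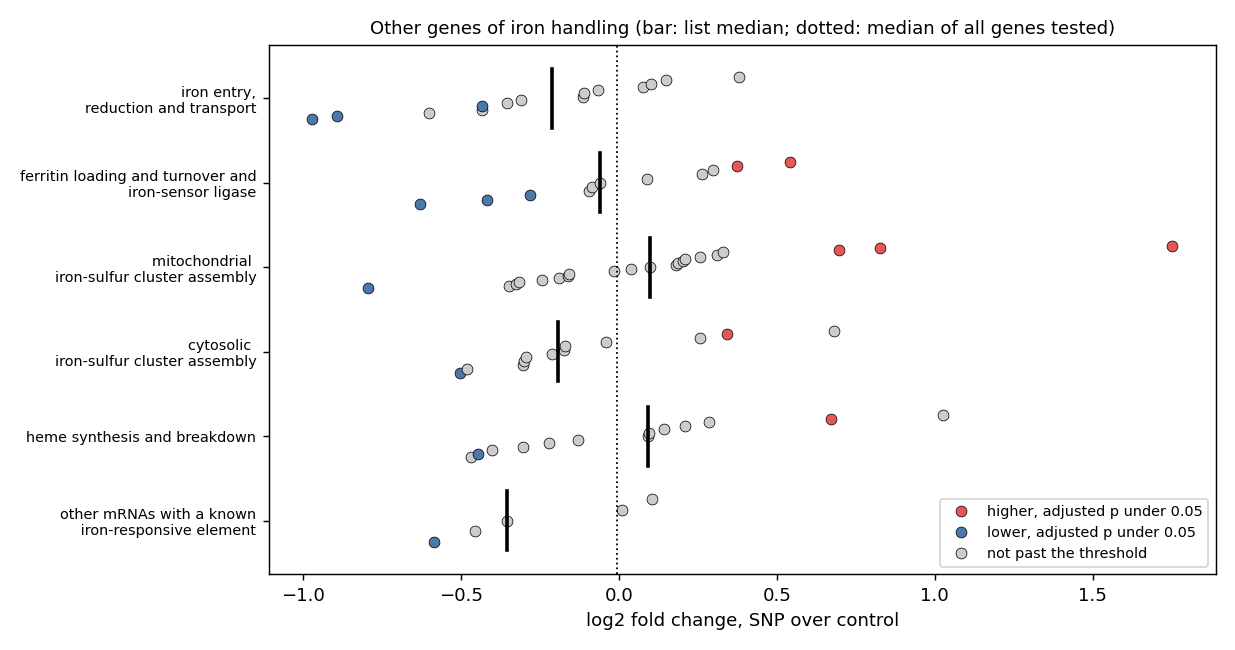
Log2 fold change of SNP over control (edgeR) for each tested gene of the 6 iron lists (points; red higher, blue lower, grey not past an adjusted p of 0.05), with the median of each list (black bar) and of all genes tested (dotted line). The point farthest to the right is FDXR at 1.75 and that farthest to the left is MCOLN1 at -0.97; list medians lie between -0.36 and 0.10.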

How the data were processed

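RNA of 4 SH-SY5Y libraries (2 control, 2 SNP) was sequenced with 75 bp reads at a labelled 40 M reads per sample, per the labels. Per the submitters' processing notes the build was GRCh38; aligner, counter, annotation and use of strand are not given in the sources used here. Whole-number read counts per gene stand in the deposited tables beside TPM and RPKM values. TPM as deposited is scaled by gene length within a library, per the file headers and the values. RPKM as deposited is scaled by length and a read total larger than the summed counts. That implied total was 50.6 M and 48.7 M in control and 60.6 M and 62.0 M in SNP libraries, above the labelled 40 M. The summed gene counts were 11.5% to 13.3% of it, and what made up the rest is not given in the sources used here. Of counted genes, 89.9% to 90.0% had an implied length within 0.1% of GENCODE 29, which gave positions, overlaps, sequences and base composition. Of the 10 iron genes SLC11A2 did not match.

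The counts went into edgeR 4.0.16 (R 4.3.3): filterByExpr (minimum count 10, total 15), TMM, quasi-likelihood test without covariates, Benjamini-Hochberg adjustment over all genes tested, threshold 0.05. Confidence intervals are 95%. Scripts were tested on simulated counts with the same dispersion for all genes and no trend with base composition. That test therefore does not cover the composition trend of these data. Alternatives were other filters and scalings, DESeq2 1.42.0, limma 3.58.1 (voom), the replicate letter as a block, per-library lowess offsets (span 0.5, 3 iterations) on length, GC and guanine minus cytosine content, a threshold of 0.01 and each library left out. Leaving out a library leaves 1 in its group, which is assumed to vary like the other group.

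Groups come from the sample titles. The members, lists and offsets were chosen with earlier results of these data known. Named are the 10 members and, per list, up to 2 genes with the largest rise and 2 with the largest fall among those past the threshold with a mean of at least 5 CPM; other named genes were chosen after their values were seen. HJV, CIAO2A, CIAO2B and CIAO3 were matched by the older symbols in the tables. Some genes of the lists are counted in them but not reported here by name.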

Additional observations from a re-analysis of the deposited data

How the results depend on the processing

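Of the 10 iron genes, 3 were called in every alternative except the base-composition offsets (length, GC, guanine over cytosine), under which 1 was called, TFRC. With those offsets FTH1 was at 0.014, SLC11A2 at -0.0015, SLC25A37 at 0.019, ACO1 at -0.0062, FBXL5 at -0.00058 and PCBP1 at 0.11 on the log2 scale, all with the opposite sign to the values in the report. Leaving out each library in turn, the sign also turned for SLC11A2 (-0.0057 to 0.15, below 0 without SNP a), SLC25A37 (-0.19 to 0.024, above 0 without SNP b), SLC40A1 (-0.29 to 0.025, above 0 without control b and without SNP a) and ACO1 (-0.084 to 0.14, below 0 without control a and without SNP a), none of which was called in any fit. Of the 76 tested list genes 17 were called, 9 with the base-composition offsets and 10 to 19 with a library left out. Over all genes 3861 were called, 2377 with DESeq2's Wald test, 2224 at a threshold of 0.01, 2936 with the base-composition offsets (among them 51.0% of the 3861), and 2447 to 4144 with a library left out. The cause of these shifts was not tested. With the replicate block the counts were 3, 20 and 4487. The letters were not taken as pairs because the labels do not say that they mark a shared experiment. Library a minus library b correlated at 0.044 between the groups across all genes tested. That value includes genes with low counts, so it cannot decide whether a and b are pairs. The order of control levels was the same in TMM-scaled counts per kilobase, which is nearly fixed in advance because TPM also divides counts by length. The 5 ratios kept their direction with each library left out. For the ratios, counts and RPKM give the same group differences by construction. With length and GC offsets alone the log2 differences of TFRC to FTH1, TFRC to FTL and FTH1 to FTL were 0.97, 1.07 and 0.090, and with the base-composition offsets 0.42, 0.52 and 0.095, and 0.44 for TFRC to SLC11A2. Depth limits SLC40A1 most, with 44 to 59 counts per library.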
